A study of Homo sapiens with 6 samples.

Results

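FOXF1, FOXF2, TBX2, TBX3, TBX5, TWIST1, PRRX1, MEOX2, TCF21 and SNAI2 encode 10 transcription factors of mesenchymal and lung fibroblast identity. They were chosen by name, with earlier results of these data known. Every probe set that the array annotation gives to 1 of these genes, under the current symbol or an older alias, was taken. All 10 genes were on the array, among 11963 named genes, and they had 15 of the 22215 probe sets tested. TBX2 had 4 probe sets, TBX5 and MEOX2 had 2 each, and the other genes had 1 each.

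The samples were 3 arrays of growing, wild-type WI-38 cells and 3 arrays of WI-38 cells that overexpressed RASv12, a RAS protein locked in its active state, and that are labelled senescent. WI-38 is a diploid fibroblast strain from human fetal lung, so all samples share 1 genetic background. All were cultured at 3% oxygen and infection was by retrovirus, but no label says whether the control cells received an empty vector, or how long after infection RNA was taken. The labels give Cy5 to the control samples and Cy3 to the RASv12 samples, so a dye effect, if both dyes were used, cannot be told apart from RASv12. The labels do not state separate cultures within a group, and p-values then measure only how these samples vary, which may be technical. Arrays are numbered below by the replicate numbers of the labels.

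These factors help decide what kind of mesenchyme a cell becomes. FOXF1 and FOXF2 are forkhead proteins that hedgehog signals from the airway epithelium switch on in lung mesenchyme. TBX2, TBX3 and TBX5 are T-box proteins; TBX5 acts in the early lung, heart and forelimb, and TBX2 and TBX3 are repressors that silence cell cycle inhibitors at the CDKN2A and CDKN1A loci and can let cells escape senescence. TWIST1 and TCF21 are basic helix-loop-helix proteins, which bind E-box DNA as dimers with E proteins and are held back by ID proteins. SNAI2 is a zinc finger repressor of E-cadherin. PRRX1 and MEOX2 are homeobox proteins of mesenchyme, and MEOX2 can also arrest growth.

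RefSeq promoter windows run from 250 bases before to 50 bases after a start site in GRCh38.p14. They were read for 5 of the 10 genes: FOXF2, MEOX2, PRRX1, TBX5 and TCF21. Windows of the other genes were not read here, whether or not RefSeq holds them. Those of FOXF2 and TCF21 are printed because these genes fell furthest among the 10, and that of PRRX1 because its level did not pass the test. Capitals mark E-boxes, the letters CANNTG, read on both strands. The FOXF2 window is chr6:1389326-1389625 (plus strand), the TCF21 window chr6:133888863-133889162 (plus strand) and the PRRX1 window chr1:170663881-170664180 (plus strand).
FOXF2: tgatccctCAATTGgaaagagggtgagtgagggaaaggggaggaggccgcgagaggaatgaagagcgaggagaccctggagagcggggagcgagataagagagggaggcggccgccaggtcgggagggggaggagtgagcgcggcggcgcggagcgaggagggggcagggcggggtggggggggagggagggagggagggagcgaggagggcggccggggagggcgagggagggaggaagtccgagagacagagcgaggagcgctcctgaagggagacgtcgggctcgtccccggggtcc
TCF21: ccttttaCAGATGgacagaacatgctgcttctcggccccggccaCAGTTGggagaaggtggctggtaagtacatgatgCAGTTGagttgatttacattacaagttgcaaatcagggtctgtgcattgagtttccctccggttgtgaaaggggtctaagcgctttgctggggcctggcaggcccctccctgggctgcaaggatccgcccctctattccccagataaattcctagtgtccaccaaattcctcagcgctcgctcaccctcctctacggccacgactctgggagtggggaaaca
PRRX1: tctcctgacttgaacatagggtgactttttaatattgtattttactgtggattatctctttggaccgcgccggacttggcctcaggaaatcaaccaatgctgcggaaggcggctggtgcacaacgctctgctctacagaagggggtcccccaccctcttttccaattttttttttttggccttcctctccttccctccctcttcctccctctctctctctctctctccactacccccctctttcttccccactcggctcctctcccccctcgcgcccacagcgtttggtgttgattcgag

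The TCF21 window held 3 E-boxes, whose first bases lie at positions -243, -206 and -172 from the start site, the FOXF2 window held 1 at -242, and the PRRX1 window held none. Of 35116 promoter windows of the same length, 68.7% held at least 1 such E-box. None of the 3 windows held CAGGTG, the E-box that SNAI2 binds (20.6% of all windows), GGTGTGA, the core of a T-box element (3.45%), or GTAAACA, a forkhead element (3.42%). CAGGTG is itself a form of CANNTG. The FOXF2 window held 26 CpG sites, the PRRX1 window 11 and the TCF21 window 9, beside a median of 14 over all windows. The MEOX2 window held 1 E-box and the 2 TBX5 windows 1 and 0, and none of them held the other motifs. These counts describe letters in a short window and do not show binding.

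FOXF2, TCF21 and FOXF1 were lower in RASv12 cells, FOXF2 by 3.68-fold and TCF21 by 4.57-fold in mean intensity. TBX2 and TBX5 each had 1 probe set that was lower and others that did not pass. TBX3, TWIST1, SNAI2 and PRRX1 did not pass the test, and MEOX2 was not above background in either group. A change was called where limma's test had a Benjamini-Hochberg adjusted p under 0.05 over all 22215 probe sets. By this rule 5 of the 15 probe sets were lower, beside 13.0% of all probe sets, and 0 of 15 were higher, beside 11.3%, so that 5 of 15 were called in either direction, beside 24.3%. At an unadjusted p under 0.05, 6 of the 15 were lower, beside 18.1% of all probe sets, and 0 were higher, beside 17.2%. By the brightest probe set of each gene, 3 of 10 genes were lower (FOXF1, FOXF2 and TCF21), beside 14.8% of all genes, and 0 were higher, beside 13.0%. In either direction 3 of 10 genes were thus called, close to the 27.7% of all genes. The median log2 change was -0.27 over the 10 genes and 0.020 over all genes.

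**Figure D1:**
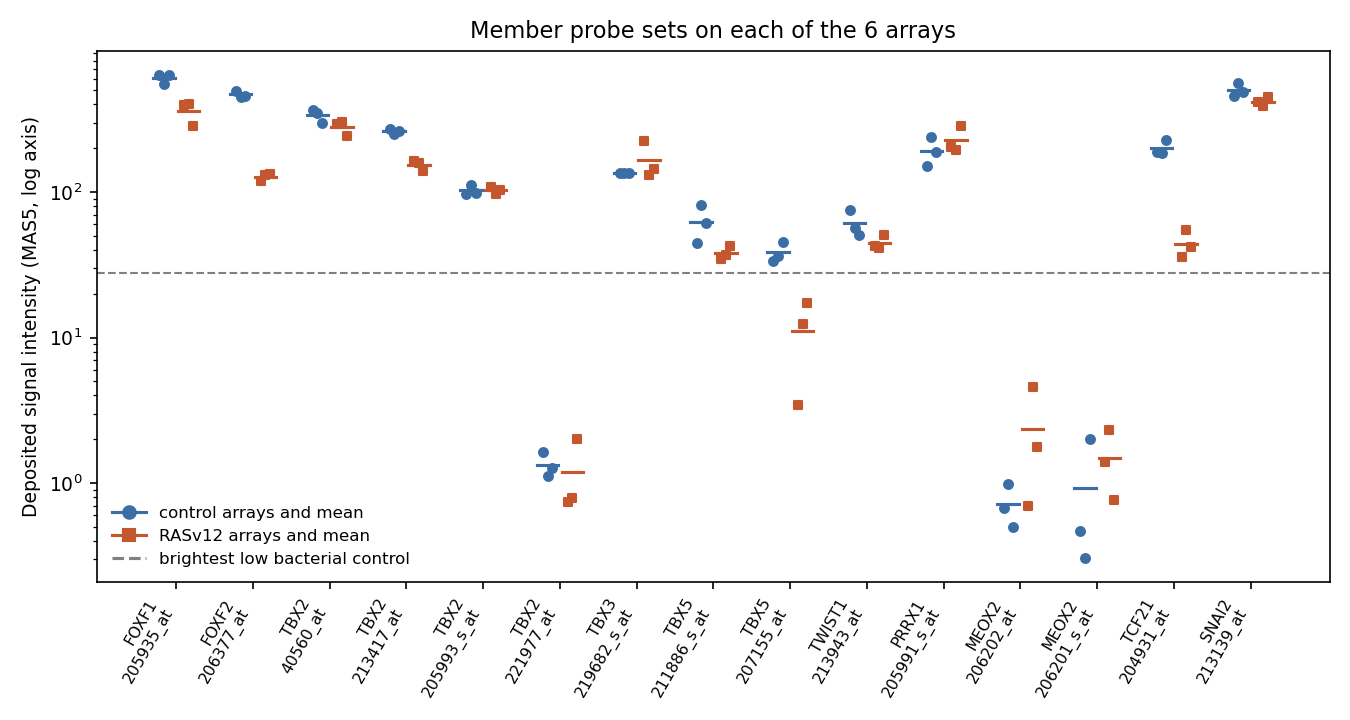
Deposited signal intensity (log axis) of the 15 probe sets on each array, with control arrays as blue circles, RASv12 arrays as orange squares, group means as bars, and a dashed line at 27.98, the brightest low bacterial control. FOXF2 and TCF21 show the widest gaps between groups above that line, and both MEOX2 probe sets lie below it on all 6 arrays.

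Depth and labels were checked once for all values. Median intensity per array ran from 26.1 to 33.4, and arrays correlated at 0.975 to 0.987 within groups and 0.912 to 0.928 between groups. HRAS, the RAS gene most used in senescence models, had intensities of 222, 189 and 234 on control arrays 1 to 3 and of 816, 753 and 989.7 on RASv12 arrays 1 to 3, though the labels do not name the RAS gene. Background was read from 27 dim probe sets that detect bacterial RNA. Their brightest value was 27.98, on RASv12 array 3, and on the other arrays they reached 12.6 to 20.1. The 18 hybridization controls were dimmer on the RASv12 arrays, with mean log2 intensities of 7.73 to 7.87 against 8.13 to 8.17 on control arrays. Scaling the arrays to them moved the median change of all probe sets from 0.014 to 0.17, and the share of rises among all calls from 46.4% to 72.3%.

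Both forkhead genes were lower. FOXF2 intensity was 497, 451 and 459.7 on control arrays 1 to 3 and 119.5, 130.4 and 132 on RASv12 arrays 1 to 3. The highest RASv12 value thus lay far below the lowest control value, and the arrays within each group lay close together. The group means were 469 ± 24.7 and 127 ± 6.90 (SD, n = 3), and the fitted change was -1.75 ± 0.094 (SE) on the scale log2(intensity + 16), with limma adjusted p = 4.6e-05. FOXF2 had the largest moderated t of the 15 probe sets, larger in size than 99.0% of all probe sets. In all 15 alternative fits it stayed called and lower, and its change without any 1 array ran from -1.79 to -1.71.

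FOXF1, the paralog that is needed for lung vessels and airway mesenchyme, also fell. Its intensity was 635, 556 and 639 on control arrays 1 to 3 and 395, 406 and 285 on RASv12 arrays 1 to 3. The groups did not overlap, and RASv12 replicate 3 was the lowest array. The means of 609.8 ± 46.7 and 362 ± 66.9 (SD, n = 3) gave a change of -0.77 ± 0.15 (SE) with limma adjusted p = 0.010, a 1.68-fold lower mean intensity. The call ended with scaling to the hybridization controls, where the change was -0.41 with adjusted p = 0.062, or -0.58 relative to the median of all probe sets in that fit, and adjusted p ran from 0.0026 to 0.062 over its 15 alternatives.

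TCF21, which marks lipid-storing fibroblasts of the lung and is an early gene of its mesenchyme, had the largest change of the 15 probe sets. Its intensity was 189, 186 and 229 on control arrays 1 to 3 and 36.0, 54.4 and 41.8 on RASv12 arrays 1 to 3. All RASv12 values were above the low bacterial controls, so the fold is measured on both sides. Means were 201 ± 23.6 and 44.1 ± 9.45 (SD, n = 3), and the change was -1.83 ± 0.15 (SE) with limma adjusted p = 2.7e-04. It stayed called in all 15 alternative fits, between -1.96 and -1.74 without any 1 array. In RNA from whole cultures, fewer cells that express a gene and less of its RNA per cell cannot be told apart.

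The T-box genes gave values that differed between probe sets. For TBX2, the second-brightest probe set, 213417_at, read 271, 249 and 264 on control arrays 1 to 3 and 165, 159 and 139 on RASv12 arrays 1 to 3, with no overlap. Its change was -0.72 ± 0.10 (SE) with limma adjusted p = 0.0035, and it stayed called in all 15 alternatives, down to -0.39 with scaling to the hybridization controls. The brightest TBX2 probe set, 40560_at, read 369, 348 and 300.03 on control arrays 1 to 3 and 296, 304 and 243 on RASv12 arrays 1 to 3, and the groups overlapped. Its change of -0.28 ± 0.12 did not pass (adjusted p = 0.15) and was 0.062 with that scaling, or -0.10 relative to the median of all probe sets there. The third, 205993_s_at, had means of 103 ± 7.75 and 103 ± 6.24 (SD, n = 3), with a 95% interval of the change from -0.18 to 0.29. The fourth, 221977_at, lay between 0.735 and 2.02 on all arrays, within the low bacterial controls. The mean of the 4, an alternative chosen after seeing the data, was -0.24 with adjusted p = 0.066 and did not pass. Where the TBX2 probe sets lie on the transcript was not analysed here.

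TBX3, the closest relative of TBX2, read 134, 136 and 136 on control arrays 1 to 3. On RASv12 arrays 1 to 3 it read 225, 131 and 144, so 1 array stood well above the other 5 and the groups overlapped. The change was 0.25 ± 0.18 (SE) with limma adjusted p = 0.39, and it was 0.041 without RASv12 replicate 1.

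TBX5 was dimmer. Its probe set 207155_at read 33.4, 36.5 and 45.6 on control arrays 1 to 3 and 3.44, 12.4 and 17.3 on RASv12 arrays 1 to 3. Every RASv12 value lay within the low bacterial controls, so TBX5 was at least 1.36-fold lower there, with control and RASv12 means of 38.5 and 11.1 (limma adjusted p = 0.0069). The bound compares mean log2 intensities with each RASv12 value raised to 27.98. The brighter probe set, 211886_s_at, read 44.8, 82.0 and 61.3 on control arrays 1 to 3 and 34.9, 37.0 and 42.4 on RASv12 arrays 1 to 3. Its groups did not overlap, but its change of -0.46 ± 0.17 did not pass (adjusted p = 0.11). Without control replicate 1 it did, at -0.63 with adjusted p = 0.026, and the mean of both probe sets, chosen after seeing the data, passed at -0.75 (adjusted p = 0.0068).

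TWIST1 and SNAI2, the factors most tied to epithelial-mesenchymal transition, did not pass. TWIST1 read 75.0, 56.9 and 50.9 on control arrays 1 to 3 and 42.4, 41.1 and 50.6 on RASv12 arrays 1 to 3. The groups were separated only by the step from 50.6 to 50.9, and the change was -0.27 ± 0.13 (SE) with limma adjusted p = 0.20. SNAI2 read 455, 558 and 488 on control arrays 1 to 3 and 416, 392 and 449 on RASv12 arrays 1 to 3. Here too no RASv12 array reached the lowest control array, by a step from 449 to 455. Its change was -0.26 ± 0.12 with adjusted p = 0.16 and a 95% interval from -0.54 to 0.013, and it was 0.082 with scaling to the hybridization controls, or -0.084 relative to the median of all probe sets there. Falls larger than 0.58 for TWIST1 and 0.54 for SNAI2 lie outside their 95% intervals.

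Of the homeobox genes, PRRX1 was measured and MEOX2 was not. PRRX1 read 151, 238 and 189.7 on control arrays 1 to 3 and 205, 195 and 287 on RASv12 arrays 1 to 3. The groups overlapped, and the change was 0.24 ± 0.20 (SE) with limma adjusted p = 0.47 and a 95% interval from -0.24 to 0.72. MEOX2 read at most 4.59 on any array by either probe set and was not well above background in any sample, so no fold is given. In total 8 of the 15 probe sets did not overlap between groups, each lower in RASv12 cells, beside 20.1% of all probe sets that were lower with no overlap and 38.1% with no overlap either way.

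**Figure D2:**
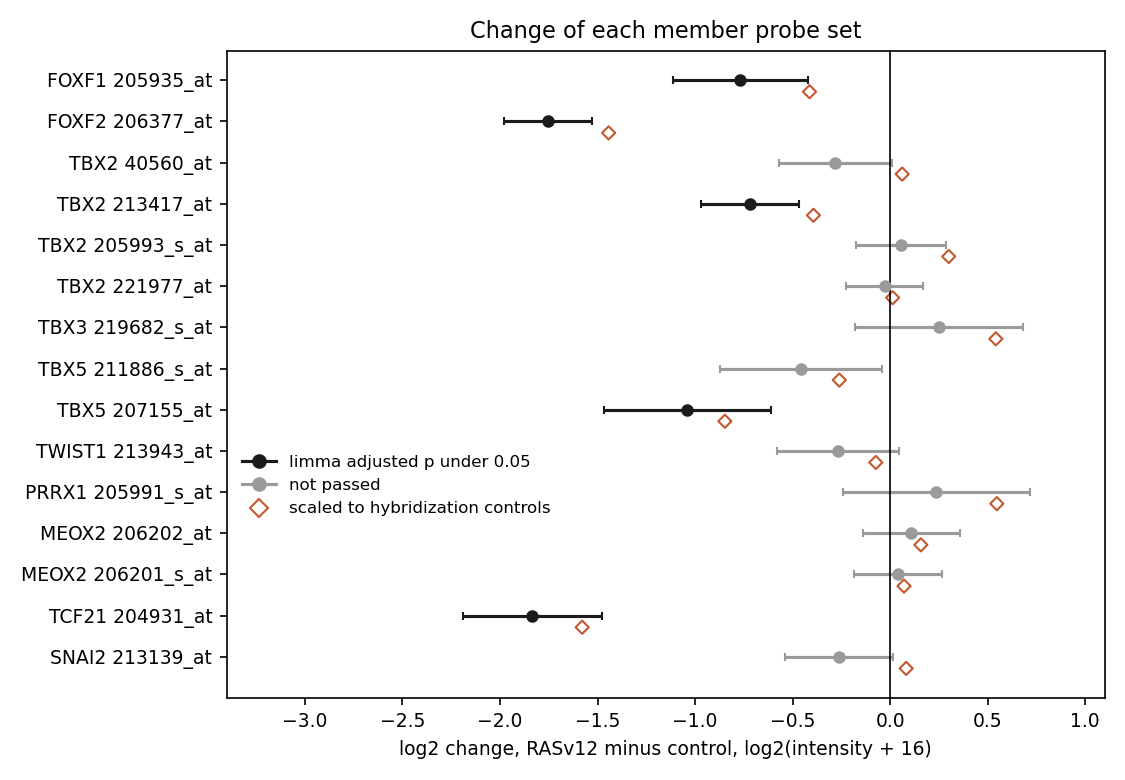
Log2 change (RASv12 minus control, log2(intensity + 16)) of each probe set as a circle with its 95% interval from limma, black where the adjusted p was under 0.05 and grey elsewhere; open diamonds give the change with arrays scaled to the hybridization controls. The black circles lie from -1.83 (TCF21) to -0.72 (the second-brightest TBX2 probe set), and every diamond lies to the right of its circle.

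Related members were then set against each other within each array, on the log2 scale and by their brightest probe sets. With 3 arrays against 3, the exact two-sided permutation test cannot go below p = 0.1, and 4 differences were tested. FOXF1 minus FOXF2 was 0.34, 0.30 and 0.47 on control arrays 1 to 3 and 1.53, 1.48 and 1.05 on RASv12 arrays 1 to 3. The mean difference was 0.99 larger in RASv12 arrays, and every RASv12 array lay above every control array (exact permutation p = 0.1, 0.13 after Benjamini-Hochberg adjustment).

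TBX2 minus TBX3 went from a mean of 1.25 to 0.72, a shift of -0.53 (exact permutation p = 0.1, adjusted 0.13). These groups barely separated, since control replicate 3 and RASv12 replicate 2 both rounded to 1.08, and the shift was -0.35 without RASv12 replicate 1. TBX3 minus TBX5 went from 0.99 to 1.70, a shift of 0.71 (exact permutation p = 0.1, adjusted 0.13), or 0.50 without RASv12 replicate 1. TWIST1 minus SNAI2 averaged -2.80 in control and -2.81 in RASv12 arrays (exact permutation p = 1.0), and no direction is read from it.

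**Figure D3:**
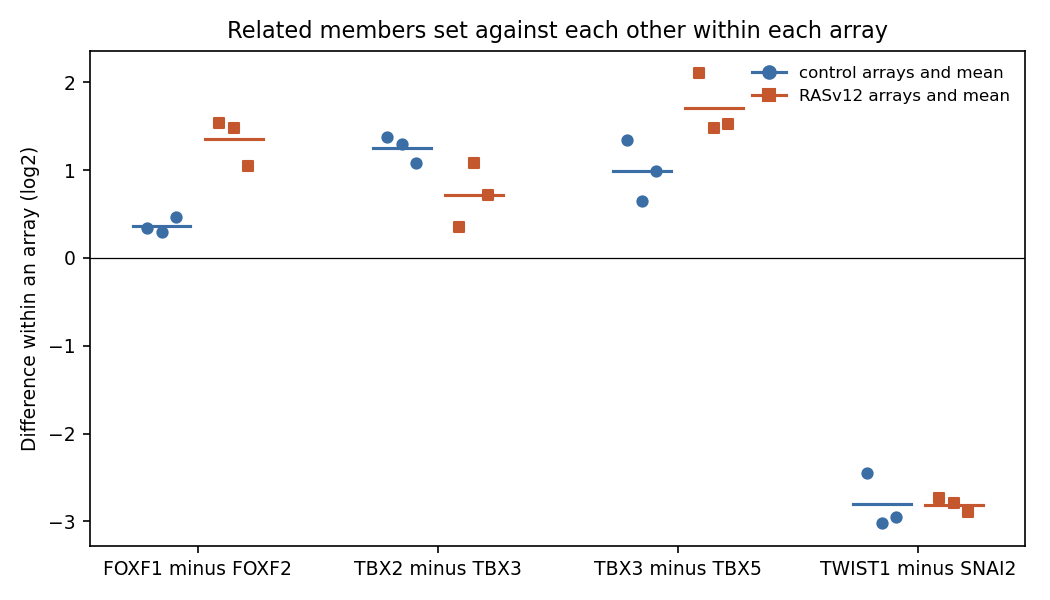
Difference of log2 values between related members within each array, with control arrays as blue circles, RASv12 arrays as orange squares and group means as bars. FOXF1 minus FOXF2 lies at 0.30 to 0.47 in control arrays and 1.05 to 1.53 in RASv12 arrays, while TWIST1 minus SNAI2 overlaps between groups.

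The wider forkhead and T-box families were read beside 13.0% of all genes called higher, 14.8% lower and 27.7% in either direction. Of 26 other forkhead genes, 4 were lower, 2 higher and 20 did not pass, and the median over all 28 was 0.013. Of the 28, 18 were under the low bacterial controls on all arrays, so most of the family was not measured. The cell cycle factor FOXM1, which drives mitotic genes, was at least 9.59-fold lower (limma adjusted p = 3.6e-05), with all RASv12 arrays within the low bacterial controls. FOXD1, a factor of kidney and lung stroma, fell by 0.86 with adjusted p = 0.0049. The brightest FOXN3 probe set was called higher, at 1.33, and the other 2 were called lower, at -1.57 and -2.35, so the direction of FOXN3 is not settled; the call of the first ended without control replicate 2, control replicate 3 or RASv12 replicate 2, each in turn (adjusted p up to 0.064). Outside the naming rule, chosen after their values were seen, FOXJ2 was called lower at -0.40, and FOXC2 (lower) and FOXL2 (higher) were called at levels under the low bacterial controls. FOXJ2 kept its call in 7 of 15 alternatives, FOXC2 in 8 of 14 and FOXL2 in 5 of 13. Of 7 other T-box genes, TBX21, a factor of T lymphocytes, was called higher at 0.58, 0 were lower (0 of them also at an unadjusted p under 0.05), and 6 did not pass. Of all 10 T-box genes, 4 were under the low bacterial controls on all arrays by their brightest probe sets. TBX2, TBX3 and TBX5 were not among them. The TBX21 call ended without control replicate 3 or RASv12 replicate 3, each in turn, with adjusted p up to 0.058.

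E proteins, the partners of TWIST1 and TCF21, and the ID proteins that hold them back were read as 1 list. Of 7 such genes, 5 were lower, beside 14.8% of all genes, 0 were higher (also 0 at an unadjusted p under 0.05) and 2 did not pass, with a median log2 change of -0.77 beside 0.020 over all genes. TCF12, an E protein that pairs with both, read 575, 558 and 515 on control arrays 1 to 3 and 164, 191 and 161 on RASv12 arrays 1 to 3. Its change was -1.60 ± 0.11 (SE) with limma adjusted p = 1.2e-04. ID3 read 414, 322 and 314 on control arrays 1 to 3 and 45.7, 57.7 and 28.3 on RASv12 arrays 1 to 3, a change of -2.63 ± 0.24 with adjusted p = 4.8e-04. Of the 5 falls 3 were ID genes. ID2 (-1.74), ID1 (-0.77) and the E protein TCF4 (-0.72, chosen after its value was seen) were the other falls, while TCF3 was at -0.074 and ID4 at 0.041. All 5 falls stayed called in every alternative of scaling, pseudocount, filter, block, weights and left-out array.

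Genes of the hedgehog pathway, which acts upstream of FOXF1 and FOXF2, were mostly dim. Of 9 measured, 2 were lower, beside 14.8% of all genes, and 0 higher, beside 13.0% (0 at an unadjusted p under 0.05 as well). The other 7 did not pass, 3 of them under the low bacterial controls on all arrays. Their median change was -0.054. PTCH1, receptor and target of hedgehog, read 61.0, 34.6 and 48.3 on control arrays 1 to 3 and 16.5, 15.9 and 14.5 on RASv12 arrays 1 to 3, at least 1.67-fold lower (limma adjusted p = 0.0062). The coreceptor GAS1 was at least 1.86-fold lower, with means of 54.6 and 1.98. The effectors GLI2 (-0.47, adjusted p = 0.10) and GLI1 (-0.55, adjusted p = 0.21) did not pass. GLI3 (0.033, limma adjusted p = 0.91) and SMO (-0.054, adjusted p = 0.84) did not pass either. Both were chosen after their values were seen and lay above the low bacterial controls on all arrays. GLI2 passed without control replicate 1, with array weights and without the dimmest 50% of probe sets, down to adjusted p = 0.015, and GLI1 without RASv12 replicate 1 (adjusted p = 0.049).

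Ligands and receptors that shape lung mesenchyme moved in both directions. Of 20 measured, 6 were lower (beside 14.8% of all genes), 3 higher (beside 13.0%) and 11 not passed. The median change of the 20 was 0.030, and 6 of them were under the low bacterial controls on all arrays. RASv12 cells had at least 30.1-fold more BMP2, a bone morphogenetic protein (limma adjusted p = 8.7e-06), with control and RASv12 means of 19.2 and 849. The fibroblast mitogen FGF2 rose from 85.9 to 969 (change 3.31 ± 0.15 SE, adjusted p = 2.5e-05). WNT2, an early ligand of lung mesenchyme, was at least 1.05-fold lower, with means of 29.5 and 5.21, and PDGFRB, a receptor of fibroblasts and pericytes, fell by 1.38. The third rise, TGFBR1, chosen after its value was seen, was under the low bacterial controls on all arrays and kept its call in 6 of 14 alternatives.

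Other mesenchymal and transition factors gave 9 falls and 1 rise among 27 measured, beside 14.8% of all genes lower and 13.0% higher. Of the 27, 17 did not pass and 13 were under the low bacterial controls on all arrays. Their median was -0.014. PRRX2, the paralog of PRRX1, read 121, 117 and 131 on control arrays 1 to 3 and 6.41, 8.98 and 9.06 on RASv12 arrays 1 to 3. It was at least 4.39-fold lower (limma adjusted p = 1.1e-05), while PRRX1 itself did not pass; the difference between these paralogs was not tested. The nuclear receptor NR2F1 fell by 1.59 ± 0.12 and OSR2 was at least 1.11-fold lower. The homeobox gene MSX1 was the 1 that rose, from 28.5 ± 5.91 to 131 ± 34.7 (SD, n = 3), by 1.74 ± 0.18 (SE), with limma adjusted p = 7.1e-04. SNAI1, paralog of SNAI2, was at least 1.37-fold lower (adjusted p = 0.016, chosen after its value was seen), a call that ended without control replicate 1, control replicate 3 or RASv12 replicate 2, each in turn (adjusted p up to 0.060). With scaling to the hybridization controls 6 of the 27 were lower and 3 higher. The falls that lost their call there were MSX2, SOX9 and STAT3, named after their values were seen. MSX2 kept its call in 8 of 15 alternatives. FOXC2, a fall under the low bacterial controls on all arrays, kept its call in 8 of 14.

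Target genes were read next. There were 15 measured cadherin and junction genes that SNAI2 and TWIST1 act on or that mark the transition. Of these 3 were lower (beside 14.8% of all genes), 2 higher (beside 13.0%) and 10 not passed. Among the 15, 7 were under the low bacterial controls on all arrays. CDH1, which encodes E-cadherin, was within these controls in both groups, at means of 5.74 and 7.46. CDH2, which encodes N-cadherin, had means of 92.7 and 69.1 and did not pass (adjusted p = 0.26). CDH11, the cadherin of fibroblasts, fell by 1.54 ± 0.099 (SE) with limma adjusted p = 9.9e-05. CTNNA1 fell by 0.69 and TJP1 by 0.60 on their brightest probe sets, TJP1 not with scaling to the hybridization controls (adjusted p = 0.13) nor on its other probe set (adjusted p = 0.27). The tight junction gene CLDN1 was at least 3.28-fold higher. CLDN7, chosen after its value was seen, was called higher at adjusted p = 0.0497 within the low bacterial controls and lost that call in 10 of 13 alternatives.

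Of 5 measured cell cycle genes that TBX2, TBX3 or MEOX2 are known to act on, 3 were higher, 1 lower and 1 did not pass. Over all genes, 13.0% were higher and 14.8% lower. CDKN1A, which encodes p21 and which TBX2 represses and MEOX2 induces, rose by 0.97 ± 0.11 (SE; limma adjusted p = 0.0011). The CDKN2A gene, source of the p16 and ARF proteins, read 201, 184 and 175 on control arrays 1 to 3 and 292, 315 and 259 on RASv12 arrays 1 to 3, a change of 0.58 ± 0.10 with adjusted p = 0.0086. Its other 2 probe sets did not pass. CDKN1C fell by 0.96. CDKN2B was called higher at levels under the low bacterial controls, a call that ended without control replicate 3 or RASv12 replicate 2 (adjusted p up to 0.053), and NDRG1 was at 0.091 (adjusted p = 0.75).

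**Figure D4:**
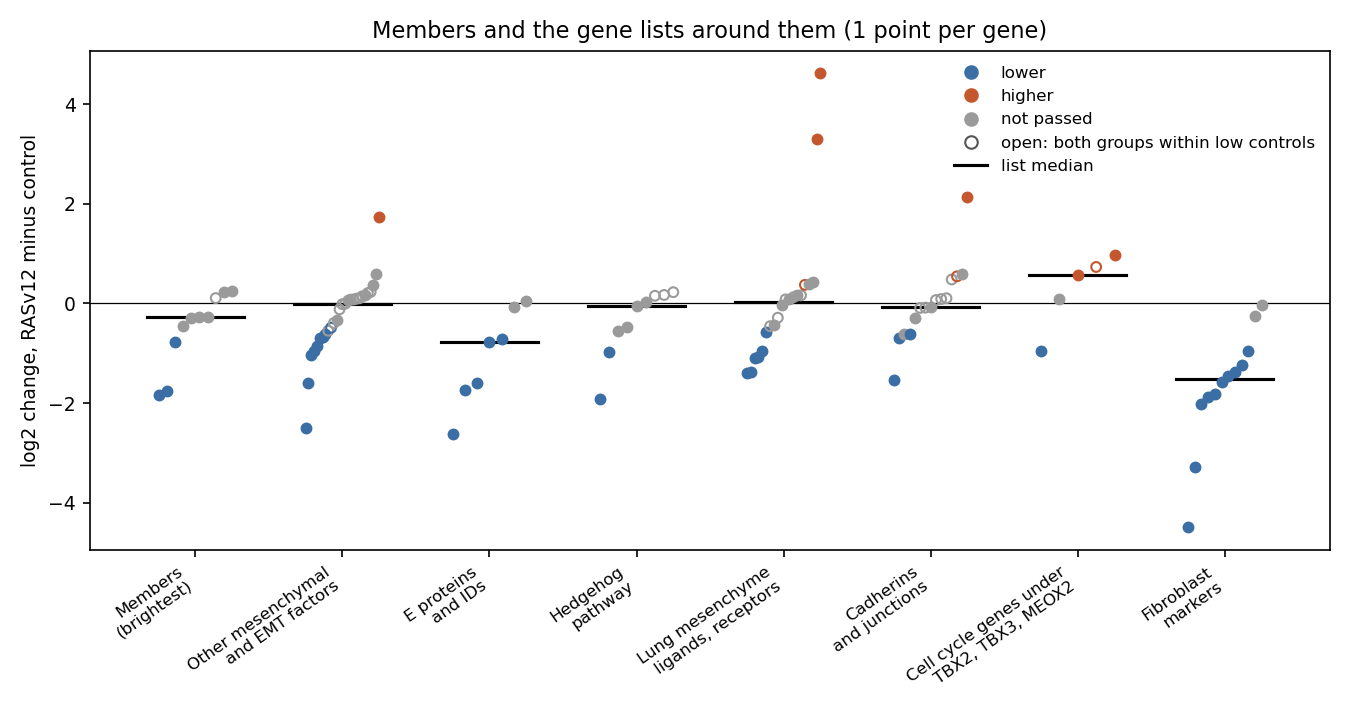
Log2 change (RASv12 minus control) of each gene, by its brightest probe set, in the 10 members and in 7 gene lists; blue is lower, orange higher, grey not passed, open circles lie under the low bacterial controls on all arrays, and bars are list medians. The E protein and ID list and the fibroblast markers lie mostly below 0, with medians of -0.77 and -1.52.

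Markers of cell types were read beside these values, where 14.8% of all genes were lower and 13.0% higher. Of 12 fibroblast markers, 10 were lower, 0 higher (also 0 at an unadjusted p under 0.05) and 2 did not pass, and their summed intensity ran from 21515 to 23924 in control and from 8715 to 10510.4 in RASv12 arrays. All 12 were above the low bacterial controls on at least 1 array. VIM was at -0.034 (adjusted p = 0.84) and FAP at -0.26 (adjusted p = 0.19). Most of these markers fell between the same groups as FOXF1, FOXF2 and TCF21. The part of the marker fall in that of the 3 factors was not tested.

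Of the markers of other cell types, skeletal muscle had 7 of 7 under the low bacterial controls on all arrays, epithelium 7 of 13, leukocytes 5 of 8, endothelium 4 of 7 and smooth muscle with pericytes 3 of 7. Summed intensities of epithelial markers were 286 to 313 in control and 297 to 326 in RASv12 arrays, with CDH1 and EPCAM within the low controls. Of 13 markers 2 were higher (SFTPB, and CLDN7 at levels under the low controls) and 1 was lower (KRT19). KRT18, chosen after its value was seen, was above the low controls on all arrays, with means of 88.0 in control and 115 in RASv12 arrays. It did not pass (limma adjusted p = 0.058). Endothelial sums were 107 to 135 and 109 to 168, with CDH5 and VWF within the low controls, but 1 of the 7 markers was lower and 1 higher. TEK, a receptor of endothelial cells, fell from 78.6 to 26.4 (limma adjusted p = 0.0034), and its relative TIE1, with means of 1.34 and 48.2, was at least 1.70-fold higher (limma adjusted p = 6.0e-05). Both were chosen after their values were seen, as are the epithelial markers named next. SFTPB, a surfactant protein gene, was called higher on its brightest probe set, from 33.6 to 57.7 (adjusted p = 0.041). That call was made in the reported fit and 6 of 15 alternatives. Its other probe sets did not pass, with adjusted p of 0.62, 0.83 and 0.87. The brightest of these had means of 30.2 in control and 30.8 in RASv12 arrays, so a rise of SFTPB is not settled. KRT19, a keratin gene with means of 52.7 and 17.6, was at least 1.88-fold lower (adjusted p = 0.016), a call that ended without control replicate 2, control replicate 3 or RASv12 replicate 2, each in turn (adjusted p up to 0.059). The part of these cell types in the changes of the 10 factors was not tested. Leukocyte sums were 45.5 to 99.3 and 73.4 to 152, with PTPRC within the low controls, and skeletal muscle sums were 34.0 to 45.4 and 34.0 to 37.4. Of 8 leukocyte markers 2 were called higher, CSF1R and MS4A1, both named after their values were seen. CSF1R had means of 7.30 in control and 23.9 in RASv12 arrays (limma adjusted p = 0.0076) and kept its call in all 14 alternatives. Only 1 RASv12 array and no control array lay above the low controls for it. MS4A1 was under these controls on all arrays (limma adjusted p = 0.038) and kept its call in 6 of 14 alternatives. Smooth muscle and pericyte sums were 1165 to 1306 in control and 745 to 806 in RASv12 arrays, with 2 markers lower and 1 higher.

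The genes nearest to each member on its chromosome were read by RefSeq order among measured genes. Of 18 neighbours that are not members, 3 were higher (beside 13.0% of all genes), 1 lower (beside 14.8%) and 14 not passed. Of the 18, 8 were under the low bacterial controls on all arrays. GMDS, next to FOXF2, fell by 0.90 (limma adjusted p = 0.014), a call that ended without control replicate 2 and with scaling to the hybridization controls, with adjusted p up to 0.067. RBM19, next to TBX5, rose by 1.15, TBPL1, next to TCF21, by 0.61, and HDAC9, next to TWIST1, was at least 1.30-fold higher. The HDAC9 call ended without control replicate 2 or 3 or RASv12 replicate 2 or 3, each in turn, and with the replicate block (adjusted p up to 0.076). TBX4, next to TBX2, was under the low bacterial controls on all arrays. TBX3 and TBX5 are neighbours of each other.

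FOXF2, the member with the largest moderated t, was set against all other genes. Those most like it, by the Euclidean distance between mean-centred log2 values over the 6 arrays, were COL1A1 at a distance of 0.12, FARP1 at 0.15 and RHOBTB3 at 0.17. COL1A1, the main chain of type I collagen, went from 3897 to 1091 in mean intensity, a change of -1.83. FARP1 changed by -1.75 and RHOBTB3 by -1.76. With 2 groups of arrays, such a distance mainly compares how large the difference between groups is.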

How the data were processed

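Expression was measured on 1 array per sample, 3 control and 3 RASv12, after 2 rounds of RNA amplification. The authors deposited a linear signal intensity per probe set, made with MAS5 per the submitters' processing notes; no source used here gives its version or scaling. The mean intensity without the outer 2% of values was close to 100.0 on each array. Of 22283 probe sets, 68 controls were left out. Genes were named from the platform annotation, updated through RefSeq gene identifiers (GRCh38.p14), and 19065 probe sets had 1 symbol, 1043 several and 2107 none. Intensities were transformed as log2(intensity + 16) and quantile normalized, since array medians differed by over 0.1, then fitted with limma 3.58.1 (R 4.3.3) on group alone, with p-values adjusted by Benjamini-Hochberg across the whole array. A list gene is read by its brightest probe set. Where all arrays of 1 group lay within the low bacterial controls, a fold is a bound on deposited intensities. Named genes are the 10 members, up to 4 per list and 3 per family by moderated t, their neighbours, the 3 genes most like FOXF2 and a few set genes. Members and lists were chosen with earlier results of these data known. The number of arrays limits the precision. The fit was tested on simulated data with independent noise and no normalization step. Far fewer probe sets were changed there than were called here, so that test does not cover the conditions of these data. Deviations from the group means did not correlate positively between same-numbered samples (correlations -0.23, -0.028 and -0.070). With 3 arrays per group, this cannot show whether the samples were paired.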

Additional observations from a re-analysis of the deposited data

How the results depend on the processing

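Of the 15 probe sets, 5 were lower and 0 higher under pseudocounts of 1 and 64, on the values as deposited, with median centring, without the dimmest 25% of probe sets (12 of the 15 kept) and with array weights. Without the dimmest 50% (11 of the 15 kept) 4 were lower, since TBX5 207155_at was filtered out. With scaling to the hybridization controls 4 were lower, without FOXF1, while all probe sets had 1675 lower and 4375 higher calls against 2893 and 2506. Leaving out each array gave 5 to 6 lower and 0 higher. A replicate block, which the data gave no ground for, gave 5 lower and 0 higher, and over all probe sets 1718 higher and 2134 lower. The difference TWIST1 minus SNAI2, which had no direction, turned to 0.080 with a pseudocount of 64 and ran from -0.11 to 0.18 without 1 array; the cause was not tested. Values near the low bacterial controls (MEOX2, TBX5, most hedgehog genes) are limited by signal over background.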
